A study of Mus musculus with 16 samples.

Results

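The 1154 regions described here are enhancer-class regions of the mouse genome whose ATAC-seq counts were lower in neural stem and progenitor cells carrying a Kat6b transgene than in wild-type cells of the same hybrid background. They were chosen by measured values, from 20792 regions that the deposited table names for enrichment of H3K4me1 and H3K27ac. On the autosomes, counts were divided by the column sum of the library after 4 regions with very high counts had been set aside, and given as CPM, the count scaled to a common library total. A region was kept if its mean over the 8 FVB x BALB/c libraries was at least 10 CPM, if all 4 transgenic libraries lay below all 4 wild-type libraries, and if the ratio of the 2 means was at most 0.67. Of 20546 autosomal regions 14352 passed the level minimum, and the 1154 regions are 8.04% of these. Because the choice rests on the transgenic and wild-type FVB x BALB/c libraries, the values in these 8 libraries are a description and carry no test. The 8 C57BL/6 libraries took no part in the choice, and the comparison of knockout with wild type among them is tested.

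The study assayed open chromatin by ATAC-seq in 4 groups of 4 samples, each from a separate embryo at stage E12.5. Cells came from the dorsal telencephalon, the embryonic forebrain region that gives rise to the cerebral cortex, and were grown in neurosphere medium. Each assay combined 50000 of these cells with 50000 Drosophila S2 cells as a spike-in. The groups are wild type on C57BL/6 (WT C57BL/6), Kat6b-/- on C57BL/6 (KO), wild type on FVB x BALB/c (WT FVB x BALB/c) and Tg(Kat6b) on FVB x BALB/c (Tg). All cells of a group share the strain background named in its label, and per the series design text the transgene is kept on the hybrid background because the transgenic mice do not survive on C57BL/6. The labels do not give the promoter of the transgene, the number of transgenic lines, the sex of the embryos, or which parental strain's alleles an embryo carried at a given region.

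ATAC-seq uses a transposase that cuts accessible DNA, so a count in a region reflects how often the enzyme reached it in the cells sampled. H3K4me1 and H3K27ac are histone marks typical of enhancers, the first present at poised and active enhancers and the second at active ones. KAT6B is a histone acetyltransferase of the MYST family that works in a complex with BRPF scaffold proteins, and mutations in the human gene cause developmental disorders with intellectual disability. Regions are named by their mm9 chromosome and start, as in the deposited table, and are not assigned to genes here. Lengths are those of the deposited table, which does not say whether they were measured on mm9 or on mm39, the build used for counting.

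Total enhancer-class counts per library ran from 894485 to 2552692, and a library held a median of 38 to 81 counts at the 1154 regions. The Kat6b promoter had 2670 to 3280 CPM of promoter counts in the 4 Tg libraries and 232 to 244 CPM in WT FVB x BALB/c. It had 293 to 300 CPM in KO and 256 to 302 CPM in WT C57BL/6, so the promoter window does not tell the knockout from its wild type. Regions on chromosome Y held 0.458 to 0.967 CPM in Tg replicates 1 to 3, 9.01 CPM in Tg replicate 4 and 34.1 to 61.3 CPM in the other 12 libraries. In the FVB x BALB/c libraries low chromosome Y counts thus went with the transgene. A part of embryo sex and a part of the transgene cannot be told apart in the contrast that chose the regions. Promoters of 11 of 12 neural stem and progenitor genes were above the median promoter in each group. Of 8 mesenchymal and meningeal promoters 4 to 6 were above it by group, and of each other list 0 to 3. The 12 neural stem and progenitor promoters summed to 1523 to 1592 CPM in Tg and 1160 to 1248 CPM in WT FVB x BALB/c. The 8 mesenchymal and meningeal promoters summed to 284 to 307 CPM in Tg and 369 to 410 CPM in WT FVB x BALB/c, and the 8 microglia and leukocyte promoters to 56.0 to 70.3 and 71.6 to 103 CPM. The 6 endothelial promoters summed to 89.5 to 97.3 and 111 to 116 CPM, the 5 erythroid promoters to 49.0 to 54.6 and 60.8 to 68.7 CPM, and none of these markers was at 0. The 8 neuron promoters summed to 253 to 269 CPM in Tg and 275 to 297 CPM in WT FVB x BALB/c. The 8 glia promoters summed to 359 to 380 and 302 to 358 CPM, also with none at 0. The 8 ventral telencephalon promoters overlapped, at 225 to 244 and 219 to 237 CPM. The median glia promoter was nevertheless lower in Tg, at 13.3 CPM beside 20.3 CPM. For ventral telencephalon these medians were 20.1 and 31.9 CPM. In the other lists the medians went the way of the sums. Over all promoters the medians were 31.3 CPM in Tg and 35.8 CPM in WT FVB x BALB/c. The part of these differences in the lower counts of the 1154 regions was not tested, and fewer cells of a type and less open chromatin per cell cannot be told apart in bulk samples.

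The 1154 regions together held 7.57%, 7.49%, 7.28% and 7.62% of autosomal enhancer-class counts in WT FVB x BALB/c replicates 1 to 4. In Tg they held 4.28%, 4.28%, 4.18% and 4.89%. In WT C57BL/6 the shares were 6.34%, 6.18%, 6.28% and 6.18%, and in KO they were 6.07%, 6.24%, 5.97% and 6.26%. The C57BL/6 libraries lie between the other groups, and the KO and WT C57BL/6 shares overlap. The median region had a group mean of 51.1 CPM in WT FVB x BALB/c, 30.1 CPM in Tg, 38.6 CPM in WT C57BL/6 and 39.5 CPM in KO. Over all 14352 regions past the level minimum these medians were 48.5, 44.0, 45.9 and 44.3 CPM. The WT FVB x BALB/c libraries set the choice of regions, so their distance from WT C57BL/6 is given as levels only.

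**Figure D1:**
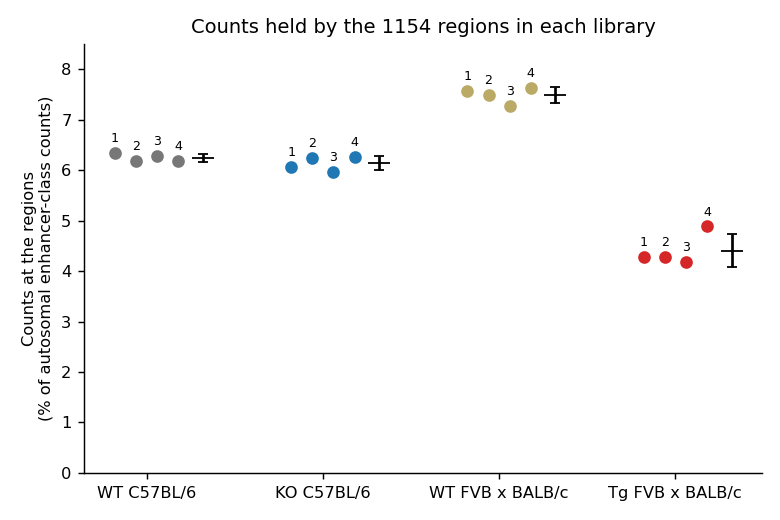
Counts at the 1154 regions as a percentage of autosomal enhancer-class counts (y axis) in each of the 16 libraries, by group. Points are libraries with their replicate numbers, and the bars beside them give the mean and SD over 4 libraries; WT FVB x BALB/c and Tg are separated by the choice of regions, while KO and WT C57BL/6 overlap.

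Most of the 1154 differences were moderate in size. The ratio of the Tg mean to the WT mean had a median of 0.603 and a lowest value of 0.152. It was under 0.4 at 11 regions, 0.4 to 0.5 at 86, 0.5 to 0.6 at 454 and 0.6 to 0.67 at 603. The median ratio over all regions past the level minimum was 0.923. The highest Tg library stood at a median of 0.805 of the lowest WT library, and at 208 regions it stood above 0.9 of it, so that the groups were separated there by a narrow gap.

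Tg replicate 4 stood apart from Tg replicates 1 to 3 at these regions. It was the highest of the 4 Tg libraries at 652 of the 1154 regions (56.5%) and the lowest at 71. Over all regions past the level minimum it was the highest at 29.7%. At the 470 autosomal regions that met the opposite rule, all 4 Tg above all 4 WT and a ratio of at least 1.5, it was the lowest Tg library at 324 (68.9%). Choosing the regions with Tg replicate 4 left out gave 1518 regions, of which 1123 were among the 1154.

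The number of regions chosen depends on how libraries are scaled to each other. TMM factors scale libraries so that most features keep their level, and offsets that follow abundance do so separately for low and high regions. With TMM factors of the enhancer class 721 of the 1154 still met all conditions, with offsets that follow abundance 581 did, and with TMM factors taken from the counts at gene ends 175 did. All 1154 had a lower mean in Tg under each of these scalings. Separation of all 4 Tg from all 4 WT libraries held at 1050, 909 and 486 of them. The median ratio of the 1154 moved from 0.603 to 0.644, 0.662 and 0.749, while that of all regions past the level minimum moved from 0.923 to 0.986, 1.00 and 1.15. On the log2 scale the all-region median went from -0.11 by column sum to 0.20 by gene ends. With the column sum taken after thinning all libraries to equal depth, 744 of the 1154 met the rule, 838 were separated and 1153 had a lower mean in Tg. Under the 4 scalings without thinning 172 regions (14.9%) met the rule, with a median ratio of 0.505.

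**Figure D2:**
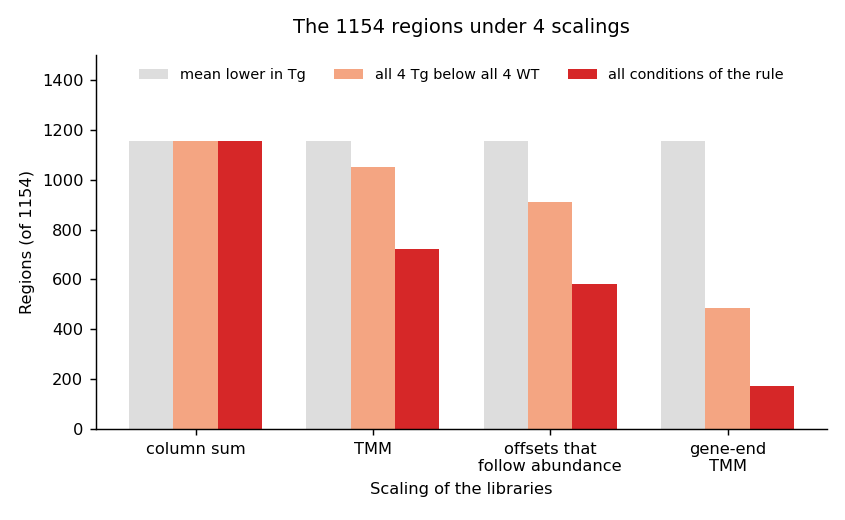
Number of the 1154 regions (y axis) under 4 ways of scaling the libraries (x axis). Grey bars count regions with a lower mean in Tg, which is all 1154 each time and was nearly fixed by the ratio limit. Orange bars count those with all 4 Tg below all 4 WT libraries. Red bars count those meeting every condition of the rule, which fall to 175 with gene-end factors.

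The region with the lowest ratio starts at 105385623 on chromosome 9 (2340 bp). Its values were 44.9, 57.4, 51.6 and 50.7 CPM in WT FVB x BALB/c and 4.45, 3.16, 1.33 and 22.2 CPM in Tg. Tg replicates 1 to 3 held 8, 6 and 3 counts there and Tg replicate 4 held 50, so the mean of 7.79 CPM rests mainly on 1 library. In the C57BL/6 libraries it held 79.5 ± 10.9 CPM in WT and 66.6 ± 9.07 CPM in KO (SD, n = 4 each), with overlap, a log2 difference of -0.20 and an edgeR adjusted p of 0.172. Without WT C57BL/6 replicate 4 the log2 difference was -0.31 and passed the threshold.

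The next 3 in order had ratios of 0.237 to 0.267 without overlap of the groups. At 154845525 on chromosome 2 (2152 bp) the WT FVB x BALB/c libraries held 223, 202, 188 and 202 CPM and the Tg libraries 41.7, 50.03, 41.2 and 60.4 CPM. At 12363374 on chromosome 12 (2101 bp) they held 124, 136, 109 and 119 CPM against 35.02, 35.8, 25.3 and 30.7 CPM. At 146744513 on chromosome 6 (2260 bp) they held 99.8, 97.6, 102 and 101 CPM against 23.9, 23.2, 27.9 and 31.99 CPM. None of the 3 passed the test in KO. Their C57BL/6 means were 119 in WT and 129 CPM in KO on chromosome 2, 76.9 and 82.1 CPM on chromosome 12, and 140 and 143 CPM on chromosome 6, with edgeR adjusted p-values of 0.204, 0.36 and 0.519. On chromosome 6 the C57BL/6 level was above the WT FVB x BALB/c level of 100.1 CPM, whereas on chromosomes 2 and 12 it was below it.

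The remaining 4 of the 8 lowest ratios lay between 0.296 and 0.353. The first of them, at 80792003 on chromosome 7 (2070 bp), held 149 ± 5.17 CPM in WT FVB x BALB/c and 43.9 ± 7.99 CPM in Tg (SD, n = 4 each), and was the only one of the 8 that was called in KO. There it rose from 109, 101, 108 and 109 CPM in WT C57BL/6 to 133, 139, 122 and 125 CPM, a log2 change of 0.32 ± 0.083 (SE) with an edgeR adjusted p of 0.00162. All 4 KO libraries were above all 4 WT libraries. The regions at 13820392 on chromosome 6, 60111455 on chromosome 12 and 114286336 on chromosome 1 held 21.6, 16.5 and 83.8 CPM in WT FVB x BALB/c and 6.97, 5.70 and 29.6 CPM in Tg. The first 2 are low regions with 10 to 18 counts in each Tg library. Of the 8, 7 met the rule under all 4 scalings, the exception being the 333 bp region on chromosome 12.

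The 6 of the 1154 with the highest mean CPM in the C57BL/6 libraries were ranked without dividing by length. Their ratios were 0.555 to 0.667 by column sum and 0.46 to 0.589 with offsets that follow abundance. At 68160535 on chromosome 12 (2001 bp) the C57BL/6 libraries held 669, 629, 737 and 777 CPM in WT and 523, 617, 534 and 517 CPM in KO. Every KO library was below every WT library, and the fall of 0.33 on the log2 scale had an edgeR adjusted p of 5.80e-08. Its WT FVB x BALB/c values were 724, 769, 803 and 994 CPM and its Tg values 550, 567, 387 and 533 CPM. The highest of these 8 values is in WT FVB x BALB/c replicate 4, in which the 4 regions set aside took 17.0% of counts, and the lowest is in Tg replicate 3, in which they took 10.2%. The region at 3032323 on chromosome 9 had its extremes in the same 2 libraries, 650 and 240 CPM. The part of this in both regions was not tested. In the C57BL/6 libraries the chromosome 9 region held 428, 350, 508 and 507 CPM in WT and 355, 434, 316 and 312 CPM in KO, with overlap. Its log2 difference of -0.30 did not pass the test (edgeR adjusted p 0.238). It passed with gene-end factors (-0.22), without WT C57BL/6 replicate 2 (-0.39) and without KO replicate 2 (-0.41).

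Among the other 4 regions of highest CPM, 1 was called in KO. At 105076400 on chromosome 10 (3311 bp) the level rose from 246, 209, 232 and 229 CPM in WT C57BL/6 to 378, 416, 370 and 385 CPM in KO, a log2 change of 0.80 ± 0.059 (SE; edgeR adjusted p 1.06e-25). In Tg the same region held 186 ± 17.3 CPM and in WT FVB x BALB/c 279 ± 27.9 CPM (SD, n = 4 each). The regions at 99450914 and 174433771 on chromosome 1 and at 93249817 on chromosome 3 held 355, 341 and 296 CPM in WT C57BL/6 and 326, 323 and 315 CPM in KO, and did not pass the test. At 174433771 all 4 KO libraries nevertheless lay below all 4 WT C57BL/6 libraries. The region at 93249817 passed the test with gene-end factors (log2 change 0.21), without WT C57BL/6 replicate 2 (0.18) and without KO replicate 1 (0.17). None of the 6 regions of highest CPM met the rule under all 4 scalings.

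In the comparison of KO with WT C57BL/6, the question was whether loss of Kat6b changed regions that were lower with the transgene. Of the 1154 regions 1152 were tested and 341 were called at an adjusted p of 0.05 (29.6%), beside 24.5% of all 15535 enhancer-class regions tested. Of these 182 rose in KO (15.8%, beside 13.4% of all regions) and 159 fell (13.8%, beside 11.1%), while 811 were not called. The median log2 change was -0.01 at the 1154 and -0.01 over all regions, and 599 of 1152 values were negative. Most of the regions were thus not called in KO, and the calls went in both directions at shares near the background. The 13179 other tested regions past the level minimum, which make up most of that background, gave 14.2% higher and 11.4% lower. The distance of the 1154 from these shares was not tested. Summed neuron promoters held 269 to 308 CPM in KO and 329 to 351 CPM in WT C57BL/6, ventral telencephalon promoters 211 to 224 and 242 to 252 CPM, and neural stem and progenitor promoters 1477 to 1535 and 1374 to 1439 CPM, with none of the 8, 8 and 12 genes at 0. The sums of the glia, mesenchymal and meningeal, microglia and leukocyte, endothelial and erythroid promoters overlapped between KO and WT C57BL/6. The part of all these lists in the KO calls was not tested. The split between higher and lower depends on scaling: with factors from gene ends 221 rose and 107 fell, and over all regions 2682 rose and 1073 fell. Regions chosen without Tg replicate 4 gave 231 higher and 222 lower of 1515 tested, and the 172 that met the rule under all 4 scalings gave 30 higher and 21 lower of 171 tested.

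Changes in KO were mostly small. The median size of the log2 change was 0.20 at the 1154 and 0.18 over all regions, and 0.50 among the 341 called. Of the called regions 61 rose and 64 fell by 1.5-fold or more (5.30% and 5.56% of those tested, beside 3.44% and 3.84% of all regions tested). By 2-fold or more 9 rose and 9 fell (0.781% each, beside 0.521% and 0.476%). The 470 regions higher in Tg gave 108 higher (23.0%) and 44 lower (9.36%) in KO. The 13179 other regions past the level minimum that were tested gave 14.2% higher and 11.4% lower.

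**Figure D3:**
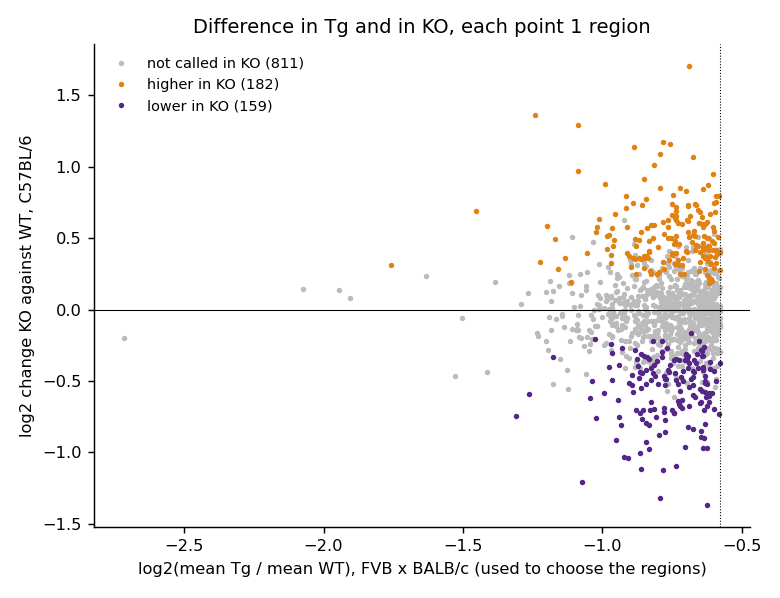
Each point is 1 of 1152 regions, with the log2 ratio of the Tg mean to the WT FVB x BALB/c mean (x axis, used to choose the regions; dotted line at the ratio limit of 0.67) and the log2 change of KO against WT C57BL/6 (y axis). Orange points rose (182) and purple points fell (159) in KO by edgeR at an adjusted p of 0.05, and both colours appear at ratios under 0.5 and above it.

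The counts of KO calls were also read by the size of the ratio in Tg, as a description, since the ratio chose the regions. Of the 97 regions with a ratio under 0.5, 15 rose and 8 fell in KO (15.5% and 8.25%). Of the 454 with ratios of 0.5 to 0.6, 452 were tested, of which 71 rose and 77 fell (15.7% and 17.0%). Of the 603 with ratios above that, 96 rose and 74 fell (15.9% and 12.3%). Over all regions tested 13.4% rose and 11.1% fell. The share that rose was similar in each class of ratio, while the share that fell differed, at 8.25%, 17.0% and 12.3%. These differences were not tested.

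The largest rise in KO was at 57565138 on chromosome 18 (2001 bp). WT C57BL/6 libraries held 22.0, 16.05, 15.98 and 21.6 CPM and KO libraries 64.9, 59.1, 65.9 and 55.0 CPM, a log2 change of 1.71 ± 0.15 (SE; edgeR adjusted p 4.25e-20). The same region held 87.3, 80.4, 86.3 and 64.5 CPM in WT FVB x BALB/c and 40.6, 47.4, 47.4 and 61.8 CPM in Tg. The WT C57BL/6 libraries are the lowest of the 16 there, and KO lies between Tg and WT FVB x BALB/c in the mean.

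At 59032508 on chromosome 18 (1225 bp) the KO libraries held 35.3, 45.0, 34.1 and 43.9 CPM and the WT C57BL/6 libraries 12.9, 17.7, 14.2 and 18.1 CPM (log2 change 1.36 ± 0.18 SE, edgeR adjusted p 3.67e-11). At 63252419 on chromosome 8 (1875 bp) the KO libraries held 70.6, 88.7, 85.9 and 84.4 CPM and the WT C57BL/6 libraries 33.4, 36.3, 38.2 and 29.9 CPM (log2 change 1.30 ± 0.12 SE, edgeR adjusted p 4.49e-18). Both were high in WT FVB x BALB/c, at 47.3 and 93.7 CPM, and lower in Tg, at 20.0 and 44.1 CPM. The regions at 38821143 on chromosome 19 and 25836898 on chromosome 13 rose in KO by 1.17 and 1.16 on the log2 scale, from 14.0 to 30.3 CPM and from 17.6 to 37.9 CPM. In all 5 the WT C57BL/6 mean was the lowest of the 4 groups, and the KO libraries did not overlap the WT C57BL/6 libraries. The choice of the largest called rises favours both. The regions on chromosome 8 and at 59032508 on chromosome 18 met the rule under all 4 scalings, and the other 3 did not.

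The largest fall in KO was at 46019499 on chromosome 5 (2001 bp). WT C57BL/6 libraries held 65.3, 46.4, 44.4 and 51.5 CPM and KO libraries 20.3, 11.1, 21.5 and 25.5 CPM, and the level fell by 1.37 on the log2 scale (SE 0.157; edgeR adjusted p 2.35e-13). In WT FVB x BALB/c it held 25.2 CPM and in Tg 16.4 CPM, so the WT C57BL/6 libraries were the highest. The region at 76115816 on the same chromosome (1510 bp) was more accessible, with 278, 307, 300.1 and 318 CPM in WT C57BL/6 and 109, 121, 115 and 125 CPM in KO. Its log2 change was -1.32 ± 0.068 (SE; edgeR adjusted p 8.14e-41), and it held 106 CPM in WT FVB x BALB/c and 61.1 CPM in Tg. No KO library overlapped a WT C57BL/6 library in either region.

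The next fall in size was at 4655771 on chromosome 13 (2001 bp), from 62.3, 61.7, 74.6 and 58.4 CPM to 26.0, 27.7, 27.4 and 26.6 CPM in KO (log2 change -1.21 ± 0.13 SE, edgeR adjusted p 4.57e-14). In the FVB x BALB/c libraries it held 42.7 CPM in WT and 20.3 CPM in Tg. It was the only one of the 5 largest falls that met the rule under all 4 scalings. The regions at 150770638 on chromosome 4 and 76163673 on chromosome 12 fell from 30.7 to 13.7 CPM and from 43.8 to 20.2 CPM, and in Tg they held 12.8 and 18.8 CPM beside 22.0 and 34.1 CPM in WT FVB x BALB/c. In each of the 5 the WT C57BL/6 mean was the highest of the 4 groups, which the choice of the largest called falls favours.

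**Figure D4:**
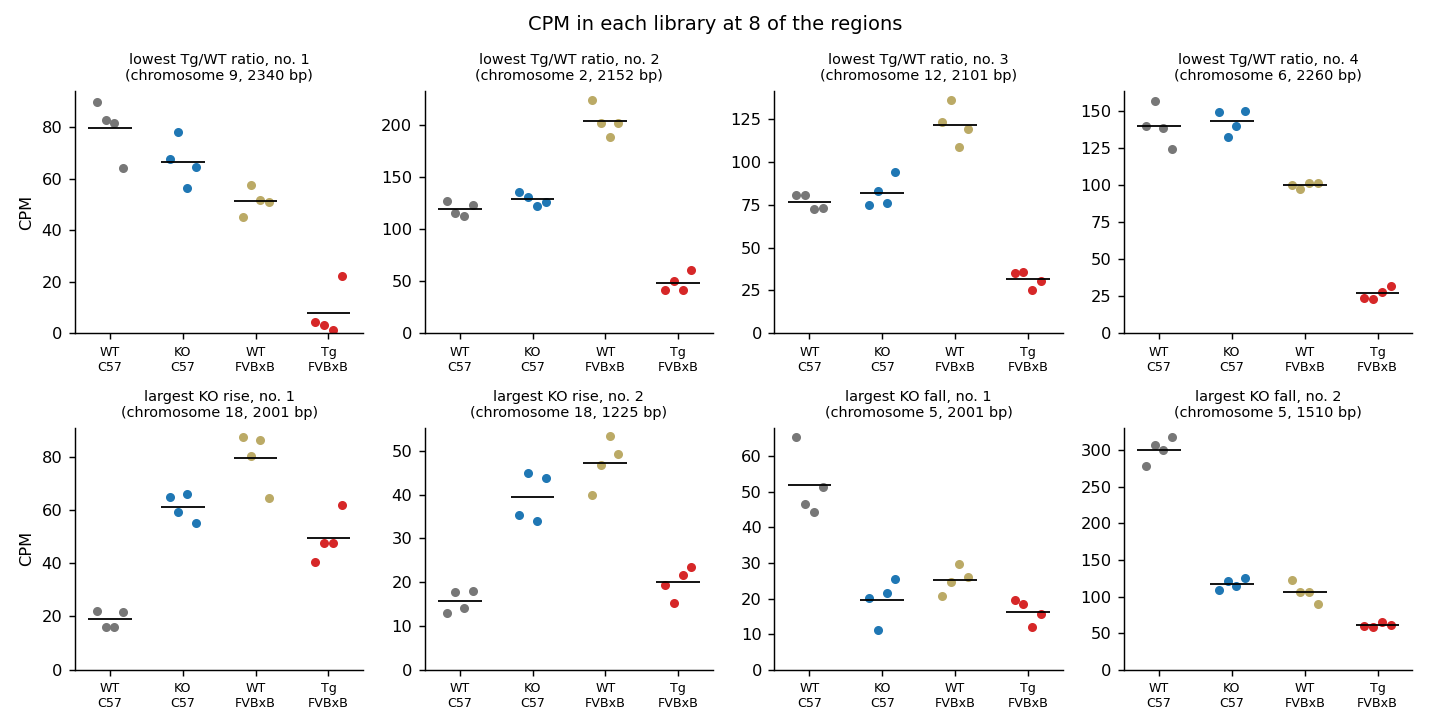
CPM (y axis, from 0) in each of the 16 libraries at 8 of the 1154 regions: the 4 with the lowest ratio of Tg to WT (top) and the 2 with the largest rise and the 2 with the largest fall in KO (bottom). Points are libraries and lines are means of 4. In the top row Tg is the lowest group, at the rises WT C57BL/6 is the lowest, and at the falls it is the highest. The choice of the regions favours each of these orders.

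The rule applied to Tg was also applied to the C57BL/6 libraries. Of the 1127 regions with a mean of at least 10 CPM there, all 4 KO libraries lay below all 4 WT libraries at 169 (15.0%, beside 13.3% of all 14224 autosomal regions at that level) and above them at 144 (12.8%, beside 11.5%). With the ratio limit added, 67 were lower (5.95%, beside 4.51%). The opposite rule was met by 46 (4.08%, beside 2.98%). The 67 are 5.81% of the 1154 regions and 10.5% of the 641 regions lower in KO by the same rule, and the 46 are 3.99% of the 1154 and 10.8% of the 424 regions higher in KO. These counts turn with the scaling. With TMM factors 63 were lower and 56 higher (5.59% and 4.97%, beside 3.88% and 3.44% of all regions at that level). With gene-end factors 48 were lower and 82 higher (4.26% and 7.27%, beside 2.64% and 5.00%), so the larger count is then the higher one, as it is over all regions.

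The share of regions that rose in KO was larger in each higher class of level, at the 1154 and at the other regions past the level minimum. Under 20 CPM in the C57BL/6 libraries 4 of the 1154 rose and 11 fell (1.90% and 5.21%), beside 0.928% and 4.49% of the others. From 20 to 40 CPM 48 rose and 47 fell (12.7% and 12.4%), beside 6.62% and 12.45%. From 40 to 80 CPM 69 rose and 59 fell (20.4% and 17.4%), beside 15.8% and 14.6%. The shares that rose were thus further from the others in these middle classes than above them. The shares that fell were further from the others above 80 CPM than in the middle classes. From 80 to 160 CPM 26.2% rose and 19.1% fell, beside 25.3% and 13.1%. At 160 CPM or more 13 rose and 7 fell (32.5% and 17.5%), beside 34.1% and 10.4%, and these differences between the 1154 and the others were not tested. The regions lower in Tg were 7.56% of the class under 20 CPM, 10.4% from 20 to 40 CPM, 8.81% from 40 to 80 CPM, 6.42% from 80 to 160 CPM and 3.34% above that. The all-region ratio of Tg to WT also moved with level, from a median of 0.867 under 20 CPM to 1.14 at 160 CPM or more. So did the median KO log2 change of the other regions, from -0.09 under 20 CPM to 0.09 at 160 CPM or more. With offsets that follow abundance 1844 rose and 1850 fell over all regions, beside 2080 and 1722 in the main fit. The part of scaling and of counts per region in the KO shares by level was not tested.

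The lengths of the regions centred on 2001 bp. The 1154 regions were 162 to 7222 bp long with a median of 2001 bp, and the median over all regions past the level minimum was also 2001 bp. Of the 1154, 216 were exactly 2001 bp (18.7%), beside 11.2% of all. Regions lower in Tg made up 13.4% of the class of 2000 and 2001 bp, 9.12% of those of 1000 to under 2000 bp, 3.87% of those of 3000 to under 4000 bp and 3.63% of longer ones. The all-region ratio of Tg to WT also had its lowest median in the class of 2000 and 2001 bp, at 0.855. In the other length classes it was 0.909 to 1.00. The density of counts was 20.9 CPM per kb in WT C57BL/6 in the median and 25.5 CPM per kb over all regions. The spread between WT C57BL/6 replicates was similar in both, with a median coefficient of variation of 12.54% and 11.96%.

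The shortest regions, at 24555581 on chromosome 10 and 74553968 on chromosome 15, are 162 bp each. The first held 3, 5, 1 and 3 counts in WT C57BL/6 and was not tested, and the second held 11 to 16 counts there and was not called (edgeR adjusted p 0.301). The longest starts at 177892112 on chromosome 2 (7222 bp) and fell from 91.2, 68.4, 73.7 and 91.1 CPM in WT C57BL/6 to 55.0, 57.9, 61.5 and 60.5 CPM in KO, by 0.45 on the log2 scale (edgeR adjusted p 0.000481). The next in length, at 60149781 on chromosome 13 (5789 bp), held 115 CPM in WT C57BL/6 and 116 CPM in KO and was not called.

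The regions were spread over all 19 autosomes at unequal shares. They were 11.3% of the regions past the level minimum on chromosome 3 (88 regions), 11.03% on chromosome 12 and 4.17% on chromosome 11 (40 regions). On chromosome 10, 17 of 57 tested rose and 2 fell in KO (29.8% and 3.51%), beside 17.1% and 9.66% of all regions tested on that chromosome. On chromosome 9, 4 of 47 rose and 12 fell (8.51% and 25.5%), beside 11.5% and 12.2%. These 2 chromosomes were singled out after their values were seen.

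**Figure D5:**
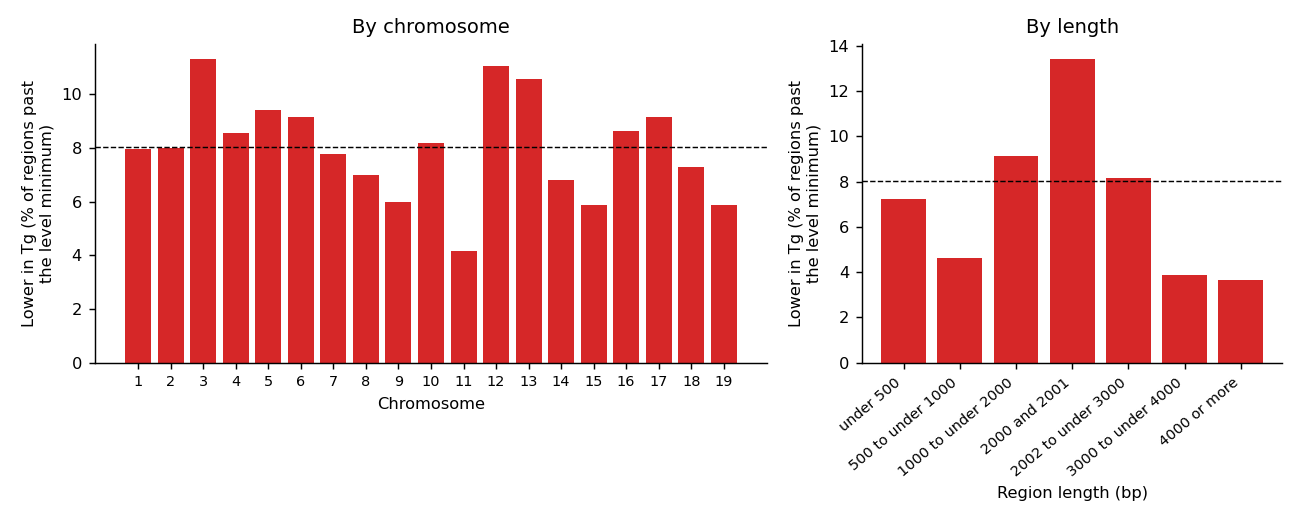
Regions lower in Tg as a percentage of regions past the level minimum (y axis, from 0), by chromosome (left) and by length of region (right). The dashed line is the share over all 14352 regions, 8.04%; shares run from 4.17% on chromosome 11 to 11.3% on chromosome 3, and are highest for regions of 2000 and 2001 bp.

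Regions lower in Tg had another such region nearby in a larger share than the rest did, as a description with no test. Another of the 1154 started within 10 kb of 52 regions (4.51%), while 1.43% of the other regions past the level minimum had one that near. Within 100 kb the shares were 23.7% and 10.99%, and within 1000 kb they were 73.5% and 53.9%. Neighbours past the level minimum and within 10 kb were counted once for each of the 1154 they lay near. Of these 244 pairs, 52 (21.3%) had a neighbour that was itself lower in Tg by the rule. With a largest step of 100 kb, 881 regions stood alone, and there were 107 pairs, 13 groups of 3 and 5 groups of 4.

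The group of 4 with the lowest ratio spans 134 kb of chromosome 6, from 141383293 to 141517515, and takes in 4 of the 5 regions past the level minimum there. In WT FVB x BALB/c the 4 regions held 58.4, 113, 49.1 and 87.4 CPM in order of position, and in Tg 33.8, 61.6, 24.9 and 52.9 CPM. Only the last was called in KO, where it fell from 154, 173, 160 and 152 CPM to 105, 104, 100.03 and 109 CPM (log2 change -0.57 ± 0.08 SE, edgeR adjusted p 1.14e-09). The other 3 held 37.8, 145 and 33.0 CPM in WT C57BL/6 and 44.4, 147 and 39.8 CPM in KO. With gene-end factors the regions starting at 141383293 and 141447779 passed the test, with log2 changes of 0.37 and 0.38. In this run neighbours with similar ratios in Tg had KO log2 changes of both signs.

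Around the ratio limit the values were continuous. Just inside it lie the regions at 91357450 on chromosome 2 and 50365408 on chromosome 14, with WT FVB x BALB/c means of 24.6 and 38.7 CPM and Tg means of 16.5 and 25.9 CPM, each at a ratio of 0.67. Just outside it lie the regions at 73416441 on chromosome 17 and 38885723 on chromosome 10, with means of 156 and 36.3 CPM in WT and 105 and 24.3 CPM in Tg. Among regions past the level minimum, 1781 had separated groups but a ratio above the limit, and 240 met the limit with overlapping groups.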

How the data were processed

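The authors deposited whole-number counts of ATAC-seq reads per region for enhancer-class regions, promoters and gene ends in 16 libraries, counted with featureCounts on mm39, per the submitters' processing notes. The aligner is not given in the sources used here, nor are read filters or the use of the spike-in. Region names carry mm9 starts, per the file headers.

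CPM were computed from autosomal column sums without 4 high-count regions. KO was compared with WT C57BL/6 in those 8 libraries by edgeR's quasi-likelihood test (edgeR 4.0.16, limma 3.58.1, R 4.3.3) with filterByExpr, TMM factors and robust dispersions, leaving out chromosome Y. Benjamini-Hochberg adjustment ran over all 15535 regions tested, with a threshold of 0.05. SE are of the log2 change. Scripts were tested on simulated data. The 16 single-library columns were mapped by name, and the 24 pairs of replicates all differed beyond counting noise (lowest ratio of chi-square to degrees of freedom 1.04). Each sample is a separate embryo, so p-values reflect how embryos, with their cultures, vary within a group. Reads carry no molecular identifiers and are not independent molecules.

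The members and lists were chosen with earlier results of these data known. Regions named are the 8 lowest ratios, the 6 highest C57BL/6 levels, the 5 largest rises and 5 largest falls called in KO, the 2 shortest and 2 longest, 2 on each side of the ratio limit and the closest group of neighbours. Alternatives covered scaling, filters, tools (DESeq2 1.42.0, limma-voom), depth and left-out replicates. Regions chosen without Tg replicate 4 and regions chosen under all 4 scalings were added after seeing the data.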

Additional observations from a re-analysis of the deposited data

Results flagged for a closer look

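Over 160 groups of 4 values 9 had a library far from the other 3, where chance gives about 1 in 20. At 105385623 on chromosome 9 Tg replicate 4 held 22.2 CPM, beside 1.33 to 4.45 CPM in the other Tg libraries. The summed level of the 1154 regions was 4.885e+04 CPM in Tg replicate 4, beside 4.179e+04 to 4.282e+04 CPM, and its chromosome Y regions held 9.01 CPM, beside 0.458 to 0.967 CPM. At 13820392 on chromosome 6 Tg replicate 1 held 10.0 CPM, beside 5.76 to 6.32 CPM, and at 76163673 on chromosome 12 Tg replicate 3 held 14.6 CPM, beside 20.0 to 20.5 CPM. In WT FVB x BALB/c replicate 3 held 63.4 CPM at 38821143 on chromosome 19, beside 49.9 to 50.7 CPM, and replicate 2 held 27.9 CPM at 91357450 on chromosome 2, beside 23.3 to 23.7 CPM. In WT C57BL/6 replicate 2 held 101 CPM at 80792003 on chromosome 7, beside 108 to 109 CPM, and replicate 4 held 241 CPM at 93249817 on chromosome 3, beside 312 to 317 CPM.

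At 7 of the regions named above all 4 KO libraries were above all 4 WT C57BL/6 libraries, while all 4 Tg libraries were below all 4 WT FVB x BALB/c libraries, the latter by choice. Their log2 changes in KO were 0.32 at 80792003 on chromosome 7, 0.80 at 105076400 on chromosome 10, 1.71 and 1.36 at 57565138 and 59032508 on chromosome 18, 1.30 at 63252419 on chromosome 8, 1.17 at 38821143 on chromosome 19 and 1.16 at 25836898 on chromosome 13. The difference between the effects in KO and in Tg was not tested.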

How the results depend on the processing

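The number of regions chosen was 1154, and 721 with TMM factors, 636 with offsets that follow abundance, 175 with gene-end factors, 926 with the 4 regions kept in the column sum, 1089 after thinning to equal depth (744 of them among the 1154), 551 at a ratio limit of 0.60 and 2079 at 0.75. It was 1166 to 1518 with 1 FVB x BALB/c replicate left out, the highest without Tg replicate 4. Of the KO calls, 341 at the chosen regions became 301 to 316 with 1 C57BL/6 replicate left out. DESeq2 called 233, of which 105 were lower, and over all regions 2493, of which 1070 were lower. Gene-end factors gave 1073 lower over all regions and moved those meeting the rule in KO from 67 to 48 and those meeting the opposite rule from 46 to 82. Restricting to the 172 regions that met the rule under all 4 scalings left 51 calls, 30 higher and 21 lower, since fewer regions were counted. The KO log2 change turned sign at 3 regions that did not pass the test, and the cause was not tested. With gene-end factors it was 0.0271 at 114286336 and 0.0366 at 174433771 on chromosome 1. With 1 C57BL/6 replicate left out it ran from -0.1127 to 0.0159 at the first of these and from -0.0618 to 0.0709 at 91357450 on chromosome 2. Calls were gained under at least 1 alternative at 105385623 and 3032323 on chromosome 9, 93249817 on chromosome 3, 50365408 on chromosome 14, and 141383293 and 141447779 on chromosome 6. The 15 named members called in KO kept their direction and call in each alternative run for them. With the replicate block 319 of the 341 were called. Same-numbered libraries did not deviate together (correlations of -0.0662 to -0.0106), so the numbers were not taken to pair samples. The median of 38 to 81 counts per library limits what can be seen at low regions.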

Other observations

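Tg replicate 4 lay between the other Tg libraries and WT FVB x BALB/c on 4 measures. From the mean of Tg replicates 1 to 3 toward the WT FVB x BALB/c mean, it stood at 19.7% of the way for the summed level of the 1154 regions, 24.7% for the 470 regions higher in Tg, 15.5% for chromosome Y regions and 17.0% for the Kat6b promoter. At 918 of the 1154 regions (79.5%) it was above the mean of Tg replicates 1 to 3, beside 53.5% of all regions past the level minimum. By the choice of regions, Tg replicate 4 could not reach WT FVB x BALB/c at the 1154 or the 470 regions. The chromosome Y regions and the Kat6b promoter took no part in that choice.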
